A study of Mus musculus with 42 samples.

Results

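The regions described here are the accessible sites of euploid hippocampal neurons that lie between genes. They are the peaks of the euploid neuronal ATAC-seq list that the deposited annotation places in the class OtherIntergenic and that sit on chromosomes 1 to 19, X or Y. The rule took 2330 of 15479 placed peaks (15.1%), and 42 further peaks of that class outside these chromosomes were left out. Among called peaks the choice used position alone. A peak first had to be called in euploid neurons, so euploid strength bears on membership, and comparisons of presence and ratio against the other lists start from that side.

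The study asked whether returning Brwd1, a bromodomain gene in the triplicated segment of Ts65Dn mice, to its normal copy number changes gene regulation in trisomic brain. Neuronal nuclei, sorted on the neuronal antigen NeuN, came from hippocampus of adult male mice of 6 weeks, with 3 ATAC-seq libraries each from euploid mice, from Ts65Dn mice, in which a small additional chromosome gives an extra copy of genes from distal chromosome 16 and proximal chromosome 17, and from Ts65Dn;Brwd1+/- mice, which carry the same extra chromosome and are heterozygous for a mutant Brwd1 allele (repro5), so that 2 intact copies are left. SMARCA2/4, the ATPases of the BAF chromatin remodeling complex, were mapped by ChIP-seq in unsorted hippocampus of adult male mice of 6 to 8 weeks, with 4 immunoprecipitations and 4 inputs per genotype and tissue of 2 animals pooled in each. All groups shared 1 mixed background (DBA/2J x B6EiC3Sn/J). The extra chromosome and the mutation were present in the whole animal and not in neurons alone.

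Each genotype and assay came as 1 peak list pooled over its libraries. Differences between genotypes therefore had no replicate check and no test was made. Shares carry 95% Wilson intervals, which cover counting error only. The ATAC lists held 15479 placed peaks in euploid neurons, beside 29154 in Ts65Dn and 30209 in Ts65Dn;Brwd1+/-, and the SMARCA2/4 lists held 22612, 1253 and 1662. Read depth behind each list is not given in the sources used here, so longer lists cannot be told apart from deeper sequencing. In the euploid ATAC list a peak lay within 1 kb of a start for 10 of 12 pan-neuronal marker genes, 5 of 12 hippocampal glutamatergic genes and 0 of 12 GABAergic interneuron genes, against 1 of 12 astrocyte, 1 of 12 oligodendrocyte, 2 of 12 microglial and 0 of 12 endothelial genes. The share over all protein-coding genes was 43.5%. Rbfox3, which encodes NeuN, was a pan-neuronal gene without such a peak. The euploid ATAC list thus held few peaks at starts of glial or interneuron markers.

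In ATAC-seq, a transposase cuts DNA where nucleosomes and other proteins leave it exposed. Accessible sites far from genes include enhancers, insulators bound by CTCF, which holds the bases of chromatin loops, and short genes read by RNA polymerase III that gene annotations often leave out. In forebrain excitatory neurons, many enhancers carry E-boxes for bHLH factors of the NeuroD family and sites for AP-1, the Fos and Jun dimers that are made when neurons fire. BAF complexes use ATP to move nucleosomes at enhancers and promoters.

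Sequences below are 300 bases of the reference assembly GRCm38 (mm10), plus strand, around the midpoint of 9 intergenic peaks on which the results turn. Capitals mark matches, on either strand, to AP-1 (TGANTCA), the proneural E-box (CAGATG), the CTCF core (AGGGGGC), MEF2 (CTATTTATA), the CREB site CRE (TGACGTCA) and the RFX motif (GTTGCCAT). The first 3 stand for the peaks near neuronal and activity-regulated genes, the fourth for the Arc upstream peak, the fifth for the peak with the most E-boxes, the sixth for peaks over tRNA genes, and the last 3 for the strongest peaks and the peak with the highest Ts65Dn ratio.
Downstream of Neurod2, chr11:98313883-98314182: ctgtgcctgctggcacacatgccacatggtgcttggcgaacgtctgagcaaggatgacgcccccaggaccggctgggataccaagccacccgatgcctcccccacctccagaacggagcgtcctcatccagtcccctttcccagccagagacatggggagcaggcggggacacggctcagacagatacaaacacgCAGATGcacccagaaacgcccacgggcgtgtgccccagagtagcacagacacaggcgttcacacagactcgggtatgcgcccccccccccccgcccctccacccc
Upstream of Fos, chr12:85455257-85455556: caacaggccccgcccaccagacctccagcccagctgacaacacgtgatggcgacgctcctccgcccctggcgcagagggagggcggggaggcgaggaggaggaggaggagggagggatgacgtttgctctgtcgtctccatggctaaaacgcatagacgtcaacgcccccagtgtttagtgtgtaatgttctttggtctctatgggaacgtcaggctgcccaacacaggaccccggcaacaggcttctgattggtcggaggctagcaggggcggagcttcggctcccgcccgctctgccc
Upstream of Npas4, chr19:5001749-5002048: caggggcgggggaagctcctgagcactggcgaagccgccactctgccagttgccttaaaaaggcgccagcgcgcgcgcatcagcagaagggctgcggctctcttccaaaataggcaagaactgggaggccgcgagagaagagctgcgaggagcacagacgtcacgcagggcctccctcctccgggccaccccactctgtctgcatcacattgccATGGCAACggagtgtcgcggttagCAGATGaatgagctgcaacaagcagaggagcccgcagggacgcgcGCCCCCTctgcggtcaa
Upstream of Arc, chr15:74679153-74679452: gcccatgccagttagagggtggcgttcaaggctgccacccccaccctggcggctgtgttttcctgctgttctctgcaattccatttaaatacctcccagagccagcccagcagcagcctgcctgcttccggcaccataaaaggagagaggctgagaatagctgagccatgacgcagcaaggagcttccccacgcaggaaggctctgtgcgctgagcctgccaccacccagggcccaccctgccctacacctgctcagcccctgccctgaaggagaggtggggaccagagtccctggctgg
Most E-boxes, chr10:29433079-29433378: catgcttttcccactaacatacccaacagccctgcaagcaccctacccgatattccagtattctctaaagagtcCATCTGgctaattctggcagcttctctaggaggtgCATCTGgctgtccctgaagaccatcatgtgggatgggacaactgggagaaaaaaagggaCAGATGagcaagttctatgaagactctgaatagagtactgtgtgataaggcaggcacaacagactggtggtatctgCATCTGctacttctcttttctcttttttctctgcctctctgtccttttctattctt
Strongest over a tRNA gene, chr7:58399120-58399419: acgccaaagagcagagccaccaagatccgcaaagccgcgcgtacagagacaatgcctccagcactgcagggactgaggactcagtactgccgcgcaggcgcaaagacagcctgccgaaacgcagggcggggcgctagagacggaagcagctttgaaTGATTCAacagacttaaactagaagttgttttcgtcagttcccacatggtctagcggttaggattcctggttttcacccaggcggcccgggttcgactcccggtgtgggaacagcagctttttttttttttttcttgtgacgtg
Strongest peak, chr12:3109836-3110135: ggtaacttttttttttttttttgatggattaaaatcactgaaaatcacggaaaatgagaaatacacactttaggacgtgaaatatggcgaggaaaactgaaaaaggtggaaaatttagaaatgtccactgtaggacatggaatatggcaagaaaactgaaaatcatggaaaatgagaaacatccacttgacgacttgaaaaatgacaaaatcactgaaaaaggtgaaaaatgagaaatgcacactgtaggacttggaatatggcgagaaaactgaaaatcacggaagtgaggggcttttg
Second strongest peak, chr3:5860432-5860731: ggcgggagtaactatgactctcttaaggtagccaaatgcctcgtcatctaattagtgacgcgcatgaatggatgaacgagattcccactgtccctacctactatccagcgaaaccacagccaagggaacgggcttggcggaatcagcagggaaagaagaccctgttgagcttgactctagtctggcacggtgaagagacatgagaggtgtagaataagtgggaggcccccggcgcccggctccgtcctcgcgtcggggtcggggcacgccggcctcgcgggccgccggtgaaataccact
Highest Ts65Dn ratio, chr6:47757736-47758035: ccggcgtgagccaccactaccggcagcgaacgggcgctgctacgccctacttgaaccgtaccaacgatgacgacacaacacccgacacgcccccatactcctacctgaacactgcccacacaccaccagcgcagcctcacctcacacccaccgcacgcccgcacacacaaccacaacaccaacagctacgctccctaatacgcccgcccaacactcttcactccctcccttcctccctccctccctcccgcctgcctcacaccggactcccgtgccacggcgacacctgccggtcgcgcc

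Intergenic peaks were distal but not remote. From the midpoint of a peak to the nearest transcription start of any GENCODE vM21 gene the median was 19390 bp (95% interval of the median 18262 to 20267), and to the nearest protein-coding start it was 48834 bp. Of the 2330 peaks, 598 (25.7%) lay 3 to 10 kb from a start, 1197 (51.4%) 10 to 50 kb, 311 (13.3%) 50 to 100 kb and 149 (6.39%) beyond 100 kb. Only 75 midpoints (3.22%) were within 3 kb. Nearest starts belonged to protein-coding genes for 828 peaks, to lincRNA genes for 504 and to processed pseudogenes for 502. GENCODE vM21 did not always bear out the deposited class: 83 peaks overlapped one of its genes and 80 had a start within 3 kb of an edge, 126 peaks in all (5.41%). With the class taken from GENCODE vM21 in place of the deposited one, 2970 euploid ATAC peaks were intergenic.

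**Figure D1:**
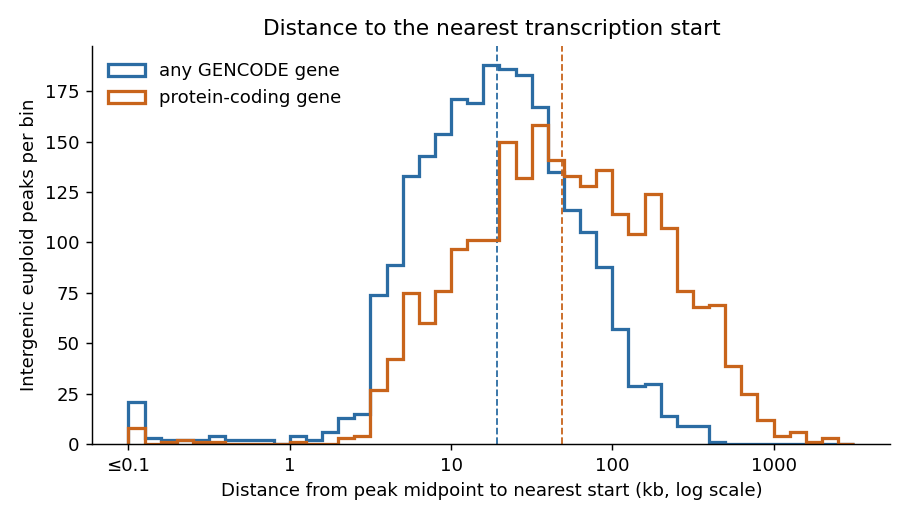
Number of intergenic euploid ATAC peaks by distance from the peak midpoint to the nearest transcription start (kb, log scale, distances under 0.1 kb drawn at 0.1), for starts of any GENCODE gene and of protein-coding genes. Dashed lines are the medians, 19390 bp and 48834 bp, and few peaks of either curve fall below 3 kb.

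The farthest peak from any start was chr1:142042694-142043110, 413 kb away, in the gene desert between Kcnt2, a sodium-activated potassium channel, and Cdc73. Its Fold-enrichment, the ratio of reads over the level that MACS expected, was 4.92 in euploid neurons, beside 6.55 in Ts65Dn and 4.36 in Ts65Dn;Brwd1+/-, an order kept below wherever 3 values stand together, and a euploid SMARCA2/4 peak overlapped it. The next, chr5:85346079-85346330 and chr5:85346741-85346988, lay side by side 375 kb and 374 kb from a start, in the interval between Epha5, an ephrin receptor, and Cenpc1. Neither touched a SMARCA2/4 peak.

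In strength, intergenic peaks were close to gene body peaks and below proximal promoter peaks. Their median Fold-enrichment was 3.80 (3.77 to 3.85), with the middle 50% of peaks from 3.44 to 4.32, against 3.64 (3.61 to 3.66) for 2624 gene body peaks and 4.51 (4.48 to 4.56) for 8557 proximal promoter peaks. Peaks of the other promoter classes, Promoter1k and Promoter3k, were weaker than intergenic ones, with medians of 3.56 and 3.48. Intergenic peaks were short, with a median of 273 bp against 267 bp in gene bodies and 424 bp at proximal promoters. The weakest stood at 2.48 and 9 of 10 were below 4.91. By distance from a start, the median Fold-enrichment was 3.63 within 3 kb, 3.77 at 3 to 10 kb and at 10 to 50 kb, 3.87 at 50 to 100 kb and 3.98 beyond 100 kb.

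A few very strong peaks stood outside that range, and the top 3 held repeated sequence. The strongest, chr12:3109786-3110187, had a Fold-enrichment of 28.8 in euploid neurons, beside 28.5 in Ts65Dn and 20.5 in Ts65Dn;Brwd1+/-. RepeatMasker had soft-masked 76.1% of its bases, and 3 runs of 30 bases sampled from its printed window occurred 83, 163 and 1 times in the assembly. Next came chr3:5860314-5860850 at 15.5, 17.4 and 12.6, whose sampled runs occurred 6, 2 and 1 times, and chr15:75086071-75087070, between Ly6c1 and Ly6c2, at 12.5, 12 and 12.1, whose runs occurred 4, 5 and 1 times. The fourth, chr12:29290894-29291442, lay 237 kb from Myt1l, a zinc finger factor of neurons, with 9.56, 9.15 and 7.61. The fifth, chrX:143482930-143483188, lay 35.5 kb from Pak3, a kinase of synapses, with 9.0, 9.46 and 7.21. Sampled runs of the Myt1l and Pak3 peaks each occurred once. In all 5 the Ts65Dn value was within 1.12-fold of the euploid value, and in 4 of them the Ts65Dn;Brwd1+/- value was the lowest. How far repeated sequence bears on these heights was not tested.

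Most peaks stood alone. The median gap to the nearest other intergenic peak was 153 kb, 57.9% had none within 100 kb, and 294 (12.6%) had one within 10 kb. Clusters, taken as runs of at least 3 peaks each at most 10 kb from the next, numbered 12 and held 36 peaks (1.55%, 1.12% to 2.13%), 3 in each. The widest, chr15:37045591-37062887, had its nearest peak 37921 bp from the start of Zfp706. Its 3 peaks had Fold-enrichments of 3.18, 4.10 and 3.62 in euploid neurons, and 4.24, 4.98 and 4.11 in Ts65Dn. Next, chr13:16642512-16656489 lay between Inhba, an activin subunit, and Sugct, and its middle peak was absent from both other lists. The third, chr15:12093718-12106803, had its nearest peak 11197 bp from Zfr, which encodes an RNA-binding protein, and all 3 peaks were in all ATAC lists.

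Other clusters differed in kind. At chr6:108700543-108710223, by Bhlhe40, a bHLH repressor that activity induces, 2 of 3 peaks overlapped a euploid SMARCA2/4 peak. At chr17:73263076-73272295, between Lclat1 and Capn13, all 3 did. The cluster at chr2:122375538-122378169 was made of tRNA genes for histidine. The one at chr5:14954338-14961894, in a repeated family of Speer genes, had up to 98.1% masked bases, and none of its 3 peaks was in either trisomic list. These 4 were named after their values were seen.

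Few genes were nearest to many peaks. The 2330 peaks had 1986 different nearest genes, of which 1701 were nearest to 1 peak, and 7 were nearest to 4 or more. Adgrb1, an adhesion receptor of synapses, led with 8 peaks, followed by Rbfox1, a neuronal splicing factor, Trim27 and the lincRNA AC121886.1 with 5 each, and by Gm12240, Gm13982 and the Y RNA gene Rny3 with 4 each. Of the 5 nearest to Trim27, 4 lay over tRNA genes. The remaining places of the 10 were tied at 3 peaks and are not ranked. When protein-coding starts alone were counted, Adgrb1, Rbfox1 and Zfp706 led with 8 peaks each, and Emp1 and Tbl1xr1 had 6.

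Peaks around Adgrb1, named for their number, were mostly below the median strength. Their euploid Fold-enrichments ran from 2.59 to 4.28, with a median of 3.05, and 5 of 8 overlapped a euploid SMARCA2/4 peak, beside 23.6% of all intergenic peaks and 31.1% of all euploid ATAC peaks. The nearest, chr15:74594046-74594306, lay 6.25 kb away with 3.01 in euploid neurons, beside 3.91 in Ts65Dn and 2.92 in Ts65Dn;Brwd1+/-. All 8 were in the Ts65Dn list, each with a higher value than in euploid, and 7 were in the Ts65Dn;Brwd1+/- list, each with a lower value than in euploid. Of all shared intergenic peaks, 90.6% were higher in Ts65Dn and 64.0% in Ts65Dn;Brwd1+/-, so the first count is near the background. The 8 peaks with Rbfox1 as the nearest coding gene ran from 2.93 to 4.60, at 0.108 to 290 kb from its starts. All 8 were in both other lists and 2 were over SMARCA2/4. Of them, chr16:5885143-5885352 and chr16:6348668-6348957 lay 0.108 kb and 0.326 kb from a Rbfox1 start. Between these starts lay chr16:5931748-5931947 and chr16:6042819-6043086. By GENCODE these sites were thus at or within Rbfox1, against the deposited class.

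Genes induced by neuronal activity had the most intergenic peaks of the 11 gene lists. Of 12 activity-regulated genes, 6 were the nearest coding gene of 9 peaks, all 9 were in both other ATAC lists, beside 88.7% of all intergenic peaks and 94.6% of all euploid peaks, and 6 overlapped a euploid SMARCA2/4 peak, beside 23.6% and 31.1%. Over all coding genes, 7.76% were nearest to an intergenic peak. Fos, the AP-1 subunit, had 3: chr12:85455033-85455781, 18.5 kb upstream, with a Fold-enrichment of 6.31 in euploid neurons, beside 7.56 in Ts65Dn and 6.21 in Ts65Dn;Brwd1+/-, chr12:85467855-85468269, 5.83 kb upstream, with 3.54, 4.31 and 3.77, and chr12:85485964-85486329, 11.2 kb downstream, with 4.53, 5.25 and 4.57. Fos is known for enhancers on either side of the gene. Ts65Dn was the highest list in each of the 3, as it was above euploid for 90.6% of all shared intergenic peaks.

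Arc, which encodes a synaptic capsid-like protein, had chr15:74679162-74679445, 6.73 kb upstream, at 3.05, 4.04 and 3.02. Arc is known for an upstream element that responds to synaptic activity, and the printed window held no match to the 6 motifs searched. Npas4, a bHLH factor induced by calcium entry, had chr19:5001682-5002117, 11.6 kb upstream, at 6.09, 7.89 and 5.40, and its window held an E-box, a CTCF core and an RFX motif. Nr4a1, an orphan nuclear receptor, had 2 peaks upstream, at 4.83 and 2.88 in euploid neurons, both over SMARCA2/4. Egr1 and Egr2, zinc finger factors, had 1 each, at 3.92 and 3.96. The 9 peaks ran from 2.88 to 6.31 in euploid neurons, on either side of the median of all intergenic peaks.

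Of 12 hippocampal glutamatergic genes, 5 had a peak, beside 7.76% of all coding genes. Neurod2, a bHLH factor of excitatory neurons, had chr11:98313852-98314214, 15.6 kb downstream, at 5.79 in euploid neurons, beside 6.24 in Ts65Dn and 5.51 in Ts65Dn;Brwd1+/-. An E-box stood in its window at position 196 from the 5′ end. Prox1, a factor of dentate granule cells, had one 92.6 kb away at 4.84, 3.96 and 3.39. Neurod6 had one 89.0 kb away at 3.98 and 3.23 that was absent from Ts65Dn;Brwd1+/-. Both were thus lower in Ts65Dn than in euploid neurons, while the Neurod2 peak was higher. Also higher were the peaks of Bcl11b, at 3.41, 4.17 and 3.66, and Zbtb20, at 3.87, 5.91 and 4.69. Of all shared intergenic peaks, 90.6% were higher in Ts65Dn. Of 15 ionotropic glutamate receptor genes, 3 had 6 peaks, beside the same 7.76% of coding genes with any. Grin2a, an NMDA receptor subunit, had 3, Gria2 had 2 and Gria1, with the strongest at 4.81, had 1, 201 kb upstream.

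Among 16 neuronal transcription factors, 6 had 7 peaks, beside 7.76% of all coding genes with any, and 4 of the 7 were over SMARCA2/4, beside 23.6% of all intergenic and 31.1% of all euploid peaks. Mef2c, a factor of activity-dependent transcription, had chr13:83715024-83715367, 62.3 kb downstream, at 4.07, 5.31 and 3.88. The euploid SMARCA2/4 peak over it had a Fold-enrichment of 5.88, well above the median of 3.82 for intergenic peaks with such an overlap. Of 18 BAF subunit genes, Arid1b and Smarca2 had 1 peak each, at 4.62 and 3.98. Pan-neuronal genes had 3 peaks on Rbfox3 and Stmn2. The 2 of Stmn2 lay 264 kb and 263 kb away, nearest to the pseudogene Gm7103, and were absent from both other lists. The stronger, chr3:8245248-8245460, had 58.2% soft-masked bases and a sampled run that occurred 11 times in the assembly. Of all intergenic peaks 3.65% were in neither list, and of all euploid peaks 1.54%.

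Lists of other cell types had no more genes with a peak than the pan-neuronal list, which had 2 of 12. Astrocyte, interneuron and oligodendrocyte lists also had 2 of 12 each, the endothelial list 1 and the microglial list 0, beside 7.76% of all coding genes. Astrocyte genes had 4 peaks on Sox9 and Gja1, interneuron genes 2 on Dlx2 and Npy, oligodendrocyte genes 2 on Mbp and Mog, and endothelial genes 1 on Cdh5. Most lay far from the gene: 29.1 to 483 kb for Sox9 and 644 kb for Cdh5. The nearest were Mbp at 4.90 kb and Mog at 5.45 kb, both myelin genes. The Mog peak had 4.50 in euploid neurons, beside 7.34 in Ts65Dn and 5.83 in Ts65Dn;Brwd1+/-. Some peaks of the neuronal lists also lay far from the gene, at 179 kb for Bcl11b, 260 kb for Zbtb20 and 190 kb and 414 kb for Tcf4.

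In base composition, intergenic peaks were like gene body peaks and unlike proximal promoters. Median GC content of their 300-base windows was 51.0%, against 51.3% in gene bodies, 66.3% at proximal promoters and 44.3% in windows 2 kb to either side. Median observed over expected CpG was 0.268, against 0.255 and 0.847 in the other classes. Repeats were scarce within peaks, with a mean of 8.21% soft-masked bases against 29.3% in the flanks, and 24 peaks were masked over at least 50% of their bases. No peak shared a run of 30 bases with the mitochondrial genome.

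The proneural E-box was the motif found most often. CAGATG stood in 956 windows (41.0%, 39.0% to 43.0%), against 22.6% of flanking windows of the same length, 45.4% of gene body peaks, 8.41% of proximal promoters and 21.3% of all euploid ATAC peaks. AP-1 stood in 422 (18.1%, 16.6% to 19.7%), against 9.85% of flanks, 18.1% of gene body peaks, 3.25% of proximal promoters and 8.72% of all peaks. AP-1 was thus as common as in gene bodies and the E-box somewhat less so. The RFX motif stood in 3.73% of intergenic peaks and 0.923% of flanks, the CTCF core in 6.74% and 2.45%, and the CRE in 0.901% and 0.193%. Over all euploid ATAC peaks these shares were 2.42%, 13% and 2.66%. MEF2 went the other way, with 4 intergenic windows (0.172%) against 0.665% of flanks and 0.291% of all peaks. Flanks held fewer G and C bases than peaks, and the part of base composition in these shares was not tested.

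Windows with 2 or more E-boxes numbered 242, and 196 held both an E-box and AP-1. The largest number was 4, in chr10:29433083-29433375, 70.8 kb from Rnf146, whose letters are printed above and whose Fold-enrichment was 4.50 in euploid neurons, beside 4.73 in Ts65Dn and 3.86 in Ts65Dn;Brwd1+/-. Peaks with and without the E-box were equally strong, with medians of 3.78 and 3.81. The share listed in Ts65Dn was 95.3% (93.8% to 96.5%) with it and 92.0% (90.4% to 93.3%) without. In Ts65Dn;Brwd1+/- the shares were 93.1% (91.3% to 94.5%) and 90.7% (89.0% to 92.1%), with intervals that overlapped. Both differences had the same direction, and the intervals cover counting error only, so no difference between the trisomic lists is read from them.

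Distance from genes went with sequence and with SMARCA2/4. The share with an E-box was 32% within 3 kb of a start, 36.0% at 3 to 10 kb, 41.4% at 10 to 50 kb, 45.7% at 50 to 100 kb and 53.0% (45% to 60.9%) beyond 100 kb. Over the same steps the share overlapping a euploid SMARCA2/4 peak went from 37.3% through 27.8%, 22.6% and 20.6% to 14.1% (9.41% to 20.6%). The CTCF core stood in 10.7%, 8.19%, 6.93%, 3.22% and 4.70% (2.29% to 9.38%), so its last step was not the lowest. Median GC content also fell, from 55.7% within 3 kb to 47.0% beyond 100 kb, and its part in these steps was not tested. Median width was 276 bp and 257 bp in the first and last step.

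**Figure D2:**
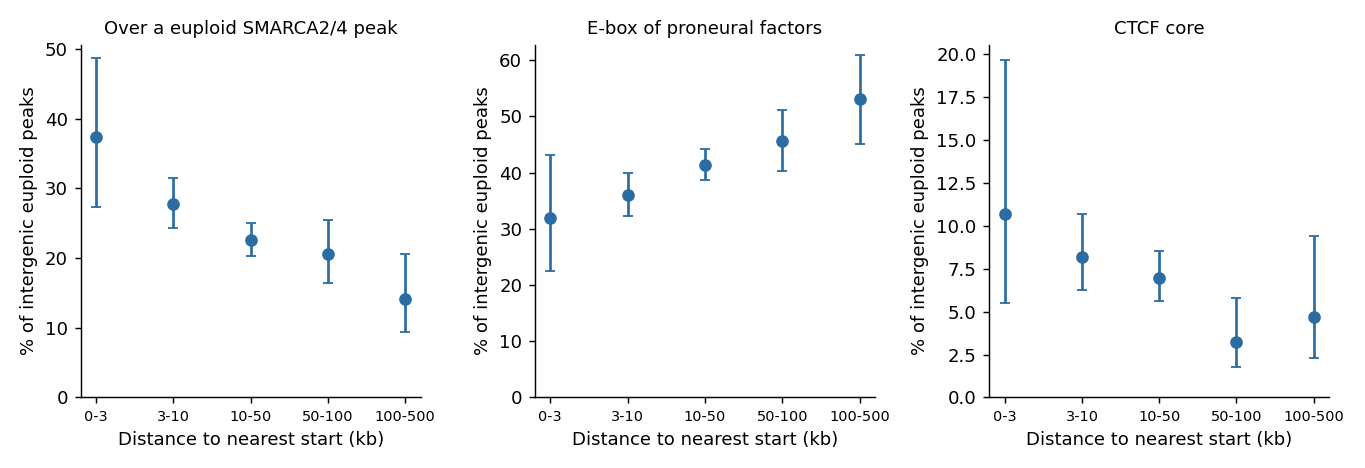
Share of intergenic euploid ATAC peaks that overlap a euploid SMARCA2/4 peak, hold the proneural E-box or hold the CTCF core, by distance from the peak midpoint to the nearest start of any gene (kb). Points are shares and bars 95% Wilson intervals. SMARCA2/4 overlap goes down from 37.3% to 14.1% while the E-box goes up from 32% to 53.0%.

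Euploid SMARCA2/4 peaks covered intergenic peaks less often than peaks at genes. Of 2330, 549 (23.6%, 21.9% to 25.3%) overlapped one by at least 1 bp, against 31.1% of all euploid ATAC peaks, 28.8% (27.1% to 30.5%) in gene bodies and 32.2% (31.2% to 33.2%) at proximal promoters. The Wilson intervals of the intergenic and gene body shares did not overlap, but they cover counting error only. Median widths were 273 bp and 267 bp, and the part of width in this difference was not tested. From the other side, 662 of 2846 intergenic euploid SMARCA2/4 peaks (23.3%) touched one of these ATAC peaks.

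Peaks that overlapped SMARCA2/4 were wider and closer to genes than the others. Their median width was 324 bp against 262 bp, their median distance to a start 16614 bp against 19984 bp, their GC content 54.0% against 50.3% and their Fold-enrichment 3.9 against 3.77. The share overlapped was 14.5% in the narrowest of 4 groups of like size (200 to 226 bp) and 39.6% (35.6% to 43.6%) in the widest (354 to 1009 bp), and a wider peak has more bases to overlap. It was 33.8% (26.8% to 41.5%) for peaks with the CTCF core against 22.8% (21.1% to 24.6%) for those without, and 35.6% (26.4% to 46.1%) with the RFX motif against 23.1% (21.4% to 24.9%). For the E-box, 22.2% (19.7% to 24.9%) with and 24.5% (22.3% to 26.9%) without could not be separated at this count. For the CRE it was 11 of 21 peaks against 23.3%. Overlap with SMARCA2/4 went with presence elsewhere: 98.9% of the overlapped peaks were in the Ts65Dn ATAC list against 91.6% of the rest.

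The highest SMARCA2/4 Fold-enrichment, 6.71, stood over chr2:59522145-59522557, 37.7 kb from Dapl1, whose ATAC Fold-enrichment was 3.49. Next was chr17:73263076-73263451, between Lclat1 and Capn13, with 6.53 over an ATAC value of 4.19. Among the 5 highest, chr15:36938512-36939158 lay 0.029 kb from the start of the lincRNA Gm34590 in the Zfp706 region, with 6.17 over 5.81. Also among them, chr11:19835173-19835777 lay between Meis1, a homeobox gene, and Spred2, an inhibitor of Ras signaling, with 6.03 over 4.87. These 4 peaks were in both other ATAC lists, and 3 were also under a Ts65Dn;Brwd1+/- SMARCA2/4 peak but none under a Ts65Dn one. Of all 549 peaks with a euploid SMARCA2/4 peak, 55 were under a Ts65Dn;Brwd1+/- one and 20 under a Ts65Dn one. Those lists held 1662 and 1253 peaks, so nothing is read from the counts among 4 peaks.

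In the trisomic SMARCA2/4 lists, few intergenic peaks were covered. A Ts65Dn SMARCA2/4 peak overlapped 34 of 2330 (1.46%, 1.05% to 2.03%), against 1.65% of all euploid ATAC peaks, and a Ts65Dn;Brwd1+/- one overlapped 75 (3.22%, 2.58% to 4.02%), against 2.45%. Of the 549 with a euploid SMARCA2/4 peak, 20 kept one in Ts65Dn, 55 in Ts65Dn;Brwd1+/- and 8 in both. These lists were far shorter than the euploid list, and 31.7% and 55.4% of their peaks had a q-value under 0.05 against 87.8% in euploid, so a missing peak cannot be told apart from a shorter list. Among the 8 covered in every genotype were chr15:75086071-75087070, the third strongest ATAC peak, all 3 peaks of a cluster at the start of chromosome 18, chr18:3004759-3006008, with masked bases of up to 70.0%, and chr11:102244960-102245427, 3.69 kb from BC030867, with SMARCA2/4 Fold-enrichments of 5.28, 4.90 and 3.87.

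**Figure D3:**
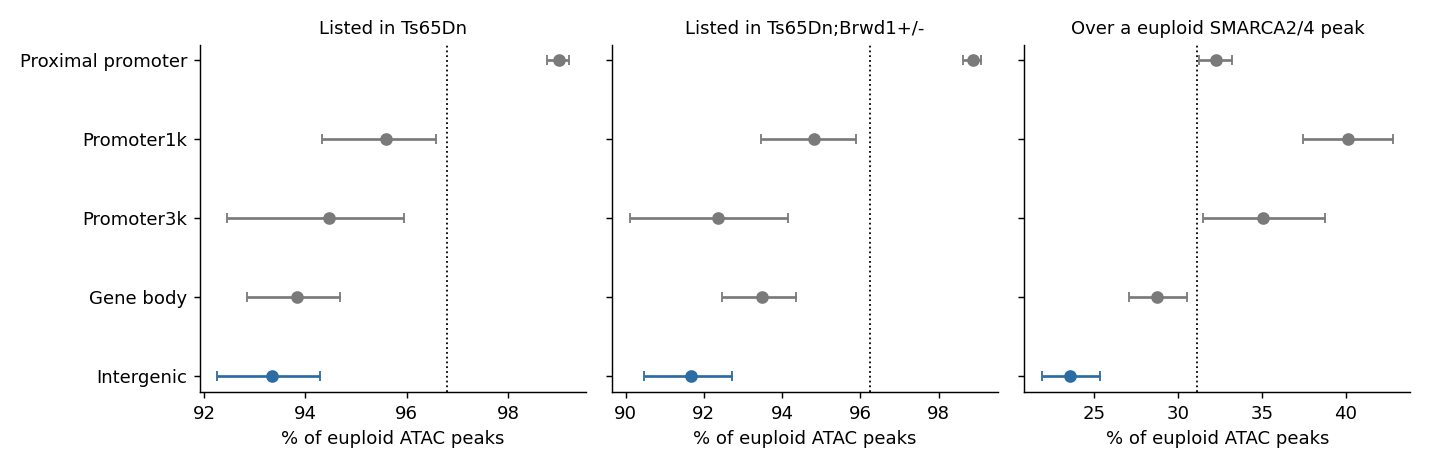
Share of euploid ATAC peaks of each deposited class that are listed in Ts65Dn, listed in Ts65Dn;Brwd1+/-, or overlap a euploid SMARCA2/4 peak; the horizontal axes do not start at 0. Points are shares, bars 95% Wilson intervals and dotted lines the share over all 15479 peaks, and intergenic peaks (93.3%, 91.7% and 23.6%) sit left of the dotted line in each panel.

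Most intergenic peaks were also listed in the trisomic genotypes. Of 2330, 2175 (93.3%, 92.3% to 94.3%) overlapped a Ts65Dn ATAC peak, against 96.8% of all euploid peaks, and 2136 (91.7%, 90.5% to 92.7%) overlapped a Ts65Dn;Brwd1+/- peak, against 96.2%. Both lists held 2066 of them (88.7%, against 94.6%), 109 were in Ts65Dn alone of the 2, 70 in Ts65Dn;Brwd1+/- alone, and 85 (3.65%, 2.96% to 4.49%) in neither, against 1.54% of all peaks. Gene body peaks were close by, at 93.8% (92.8% to 94.7%) in Ts65Dn and 93.5% (92.5% to 94.4%) in Ts65Dn;Brwd1+/-, and proximal promoters higher, at 99.0% and 98.9%. The partner was called intergenic as well in all but 1 case in each list. Seen from the trisomic side, 34.3% of 6296 intergenic Ts65Dn peaks and 32.9% of 6452 intergenic Ts65Dn;Brwd1+/- peaks touched a euploid one, and those that did not were weaker, with medians of 3.78 against 4.74 and 3.33 against 4.08.

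When each trisomic list was shortened to its 15479 strongest peaks, the shares were 71.6% (69.8% to 73.4%) in Ts65Dn and 69.5% (67.6% to 71.4%) in Ts65Dn;Brwd1+/-, against 78.7% and 75% of all euploid peaks. Gene body peaks were then below intergenic ones, at 65.5% and 60.5%. Shortening kept the strongest peaks, so length and strength changed together, and intergenic peaks were the stronger class.

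Weak peaks were the ones most often missing. In the weakest of 4 groups of like size (Fold-enrichment 2.48 to 3.44), 89.4% (86.6% to 91.6%) were in the Ts65Dn list and 88.4% (85.5% to 90.7%) in the Ts65Dn;Brwd1+/- list. In the strongest group (4.32 to 28.8) these were 98.1% (96.7% to 98.9%) and 96.4% (94.6% to 97.6%). SMARCA2/4 overlap was 24% in the weakest group, 18.1% and 20.8% in the middle groups and 31.4% (27.8% to 35.3%) in the strongest.

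**Figure D4:**
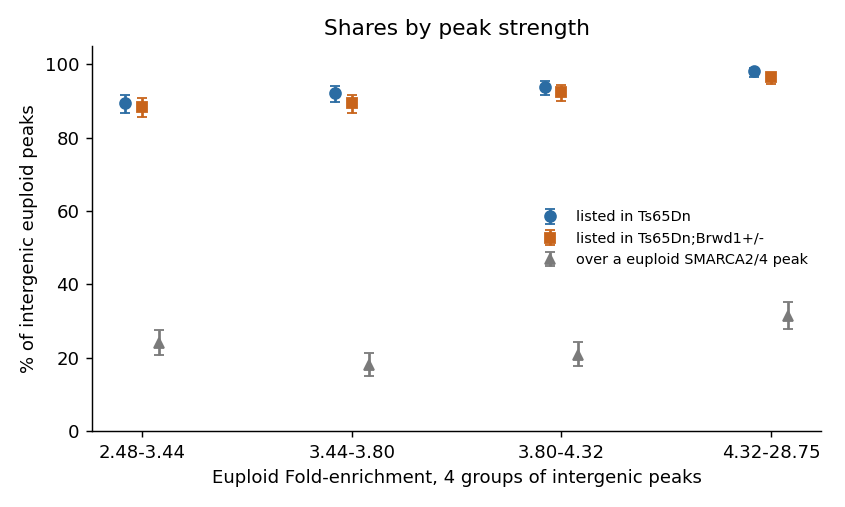
Share of intergenic euploid ATAC peaks that are listed in Ts65Dn, listed in Ts65Dn;Brwd1+/-, or overlap a euploid SMARCA2/4 peak, in 4 groups of like size by euploid Fold-enrichment. Points are shares and bars 95% Wilson intervals, and presence in Ts65Dn goes up from 89.4% to 98.1%.

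The 5 strongest peaks absent from Ts65Dn were the same 5 as the strongest absent from both trisomic lists, and all 5 held some repeated sequence. They were chr2:3050135-3050385 with a Fold-enrichment of 6.91, chr18:3004759-3004995 with 5.44, chr3:8245248-8245460 with 5.34, chr8:55539400-55539688 with 5.13 and chr7:20790693-20790914 with 4.92, near the vomeronasal receptor gene Vmn1r113. In each, at least 1 of 3 sampled runs of 30 bases occurred more than once in the assembly, up to 28 times for the peak on chromosome 8. All sampled runs of the printed Neurod2, Fos, Npas4 and Arc windows occurred once, but the 3 strongest peaks, the peak with the highest Ts65Dn ratio and the printed tRNA peak also held repeated runs and were in both trisomic lists. Among the 24 peaks masked over at least 50% of their bases, 11 were in Ts65Dn and 11 in Ts65Dn;Brwd1+/-, against 93.8% and 92.2% of the others. They made up 10 of the 85 peaks in neither list. The part of read mapping in these absences was not tested.

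Where a peak was shared, its Fold-enrichment was mostly higher in Ts65Dn. The median log2 ratio of Ts65Dn over euploid was 0.30 (0.29 to 0.31) over 2175 shared intergenic peaks, 1.23-fold, from a median level of 3.84 to 4.75, and 1970 (90.6%) were above euploid. Over all 14982 shared euploid peaks it was also 0.30. For Ts65Dn;Brwd1+/- the median log2 ratio was 0.079 (0.067 to 0.087), 1.06-fold, with 1366 of 2136 (64.0%) above euploid, against 0.066 over all 14898 shared peaks. Intergenic peaks thus moved with the whole list in both genotypes. Partner peaks were also wider, with a median of 380 bp in Ts65Dn and 372 bp in Ts65Dn;Brwd1+/- against 279 bp and 280 bp in euploid.

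Past 1.5-fold, 253 intergenic peaks (11.6%, 10.4% to 13%) were higher in Ts65Dn, against 11.6% of all shared peaks, and 1 was lower, against 0.00667%. In Ts65Dn;Brwd1+/-, 36 (1.69%, 1.22% to 2.32%) were higher, against 2.56%, and 5 (0.234%) were lower, against 0.101%. Both comparisons use the same euploid list. Among the 2066 peaks in all 3 lists, 1726 (83.5%) were lower in Ts65Dn;Brwd1+/- than in Ts65Dn, and in 1032 (50.0%) the Ts65Dn;Brwd1+/- value lay between a lower euploid and a higher Ts65Dn value. Over all 14639 euploid peaks in the 3 lists these shares were 87.8% and 52.0%, so intergenic peaks did not exceed the whole list in either. By euploid strength, the median log2 ratio in Ts65Dn was 0.39 in the weakest of the 4 groups and 0.24 in the strongest. Euploid strength is also the denominator of the ratio, so a low value raises the ratio by construction, and nothing is read from this order.

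**Figure D5:**
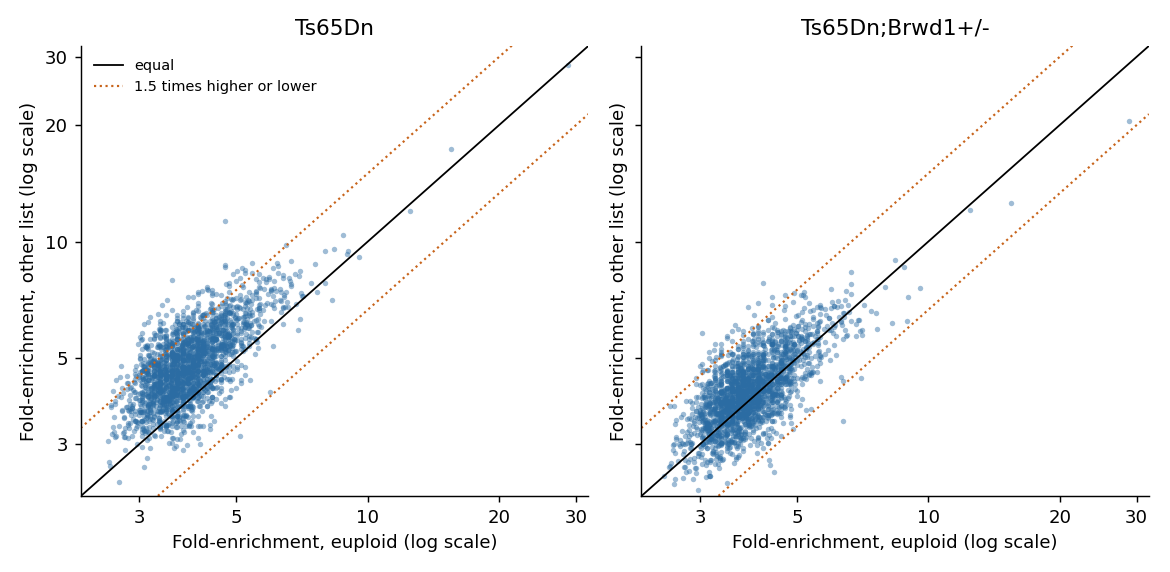
Fold-enrichment of each shared intergenic peak in Ts65Dn (left) and Ts65Dn;Brwd1+/- (right) against euploid, on log axes. The solid line marks equal values and dotted lines 1.5 times higher or lower, and 253 peaks lie above the upper line in the left panel and 36 in the right.

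Of the peaks at or above the median strength, the highest Ts65Dn ratio was that of chr6:47757663-47758110, 23.7 kb from Rny3, with 4.71 in euploid neurons, beside 11.3 in Ts65Dn and 7.29 in Ts65Dn;Brwd1+/-, a 2.40-fold difference. Its sampled runs of 30 bases occurred 17, 16 and 16 times in the assembly. A second peak of that locus, chr6:47744622-47745027, was among the 3 highest for Ts65Dn;Brwd1+/-, with 4.08, 7.31 and 6.96. The other high ones in Ts65Dn were chr12:67862631-67862955, 640 kb from the synaptic adhesion gene Mdga2, with 3.87, 7.20 and 5.11, and chr4:17636059-17636482, 217 kb from Mmp16, with 4.71, 8.71 and 5.11. Runs of these 2 occurred once. For Ts65Dn;Brwd1+/- they were chr6:32739289-32739736, between Plxna4, a semaphorin receptor, and Chchd3, with 4.19, 6.45 and 7.80, and chr9:116502891-116503198, between Tgfbr2 and Rbms3, with 3.87, 6.19 and 6.77. Every one of these high peaks was above euploid in both trisomic lists. Both ratios share the euploid value that entered the ranking, so nothing is read from this. Of all shared intergenic peaks, 90.6% were above euploid in Ts65Dn and 64.0% in Ts65Dn;Brwd1+/-.

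The lowest Ts65Dn ratio, 0.618, was that of chr2:12331949-12332247, 24.8 kb from the deubiquitinase gene Mindy3, with 5.09, 3.15 and 3.78. It was the 1 peak more than 1.5-fold lower. Next were chr15:52458871-52459133, between Slc30a8, a zinc transporter, and Med30, with 5.96, 4.09 and 4.95, and chr14:105333508-105333766, between Ndfip2 and Spry2, with 4.12, 3.00 and 3.40. Both ratios share the same euploid value, so nothing is read from all 3 also being below euploid in Ts65Dn;Brwd1+/-. The lowest there were chr18:3005206-3005549, of the cluster at the start of chromosome 18, with 6.39, 6.13 and 3.44, chr16:90197680-90197955, 22.9 kb from Sod1, the cytosolic superoxide dismutase, with 4.44, 3.44 and 2.54, and chr7:19170208-19170496, 4.23 kb from the incretin receptor gene Gipr, with 4.35, 4.60 and 2.66.

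In the segment triplicated in Ts65Dn, taken as chromosome 16 from Mrpl39 to its end and chromosome 17 up to Pde10a, lay 26 intergenic peaks. Of these, 24 were in Ts65Dn, with a median log2 ratio of 0.25 against 0.30 for the other 2151 shared peaks, and all 26 were in Ts65Dn;Brwd1+/-, with -0.062 against 0.080. Peaks in the segment thus did not stand above the others in Ts65Dn. MACS takes Fold-enrichment relative to the local background, and whether that bears on the extra copy was not tested. The Sod1 peak lies in this segment.

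Some intergenic peaks were genes after all. RefSeq, on the same assembly, lists 403 tRNA genes on placed chromosomes, which GENCODE vM21 starts used here did not include, and 28 intergenic peaks (1.2%) lay over 32 of them. All euploid ATAC peaks over a tRNA gene numbered 68 (0.439%). The 28 were strong and wide, with a median Fold-enrichment of 4.39 against 3.79 and a median width of 496 bp against 271 bp for the other intergenic peaks. They lay over genes for glutamate, alanine, leucine, histidine and other tRNAs, and the strongest, chr7:58399008-58399532 over n-TEttc7, a glutamate tRNA, had 5.93 in euploid neurons, beside 8.12 in Ts65Dn and 5.92 in Ts65Dn;Brwd1+/-. Of the 28, 27 were in each trisomic list, with median log2 ratios of 0.30 and 0.091, close to the other peaks. Euploid SMARCA2/4 overlapped 3 of 28 (10.7%) against 23.7% of the rest, although wider intergenic peaks were otherwise overlapped more often. At 28 peaks this share is loosely fixed. These genes were looked up after the data were examined.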

How the data were processed

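The authors aligned ATAC-seq and SMARCA2/4 ChIP-seq reads to mm10 with HISAT2, kept uniquely mapped reads, removed duplicates and called peaks with MACS, for ChIP-seq against inputs, with stated filters on FDR and fold. The SMARCA2/4 lists do not keep to an FDR of 0.05: q-values reach 0.153 in euploid and 1.0 in both trisomic lists. How libraries were merged is not given in the sources used here. Each deposited list gives 1 Fold-enrichment ratio and 1 q-value per peak, pooled over libraries, and a region class from the diffReps annotation. Fold-enrichment depends on depth and local background, so a level can move with either. The deposited RNA counts were not used.

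Distances ran from peak midpoints to transcript starts of GENCODE vM21 (GRCm38, the build of the lists). Lists were compared by overlaps of at least 1 bp, and ratios used the partner with the largest overlap. Motifs were searched on both strands in 300-base windows, beside flanking windows 2 kb away. Python 3.11.15, pandas 2.3.3, scipy 1.17.1 and pyfaidx 0.9.0.4 were used, and the calculations were checked on simulated data. Checks of tRNA genes, peak width, repeated runs and chromosome ends were chosen after the data were examined. Peaks were named by rank (strength, ratio, distance, SMARCA2/4 level, cluster size, peaks per gene) or by fixed gene lists, and 1 peak that the rank by SMARCA2/4 level takes is not reported here. The class and lists were chosen with earlier results of these data known. Alternatives changed thresholds, overlap rules, list length and members.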

Additional observations from a re-analysis of the deposited data

How the results depend on the processing

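No paired analysis was possible because the deposited lists pool the replicates and no result comes from a test. Of 51 alternatives, 31 left the value within its interval, or the count within 1.5-fold. The others moved it further. The median distance was 48834 bp to protein-coding starts, the share in clusters 0.258% with gaps of at most 5 kb and 4.51% with 20 kb, and the SMARCA2/4 share 4.59% when 50% of the ATAC peak had to be covered, 21.4% with SMARCA2/4 q-values under 0.05 and 31.6% within 1 kb. Presence in Ts65Dn and Ts65Dn;Brwd1+/- was 83.5% and 83.3% when 50% of both peaks had to overlap, and 71.6% and 69.5% with lists of equal size. Centred on all shared peaks, the median log2 ratio turned to -0.0053 in Ts65Dn and was 0.013 in Ts65Dn;Brwd1+/-, which follows from the subtraction. A q-value under 1e-10, chosen after seeing the data because 0.001 kept 2328 of 2330 peaks, left 1039 peaks with a median Fold-enrichment of 4.39, 0.5775% in clusters, 29.8% over SMARCA2/4, 97.7% and 96.25% in the trisomic lists and log2 ratios of 0.25 and 0.019. Leaving out peaks in or near GENCODE genes (2204 left) or masked over at least 50% (2306 left), also chosen after seeing the data, moved no result. Depth per list is unknown, which limits every comparison of presence.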

Other observations

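Intergenic peaks were spread unevenly over chromosomes. They numbered 1.55 per Mb on chromosome 15, 1.27 on chromosome 18 and 1.2 on chromosome 11, against 0.591 on chromosome 7, 0.472 on chromosome 19 and 0.111 on the X, of which male mice carry 1 copy. They made up 23.2% of the ATAC peaks of chromosome 18 and 22.1% of those of chromosome 15, but 6.87% of those of chromosome 19. On the X, none of 19 intergenic peaks overlapped a euploid SMARCA2/4 peak, and that list held 33 peaks there in all, against 817 on chromosome 18. All 19 were in both trisomic ATAC lists. The lone Y peak was in neither.

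Near the first sequenced base of a chromosome, within 250 kb, lay 8 intergenic peaks on 5 chromosomes. Of these, 6 overlapped a euploid SMARCA2/4 peak, beside 23.6% of all intergenic peaks. The Ts65Dn list lacked 2 and the Ts65Dn;Brwd1+/- list 4, where 93.3% and 91.7% of all intergenic peaks were listed. They included the strongest of all intergenic peaks. This window was chosen after the data were examined.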
